A study of Anas platyrhynchos with 6 samples.

Results

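Bone morphogenetic proteins (BMPs) and activins are secreted dimers of the transforming growth factor beta family. Each brings together a type II and a type I serine/threonine kinase receptor at the cell surface. The type II receptor phosphorylates the type I receptor, which in turn phosphorylates SMAD proteins that enter the nucleus. In the ovary of mammals and birds this system works between the oocyte, the granulosa cells and the theca. A coding change in the type I receptor gene BMPR1B is known for raising the ovulation rate of Booroola sheep.

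The 5 transcripts described here were taken by their RefSeq accession out of 41952 in each table. They are BMPR2 (XM_005016861.2) and ACVR2A (XM_013104571.1), both type II receptors, BMPR1B (XM_013104107.1), a type I receptor, BMP7 (XM_005010474.2), a ligand, and FST (XM_005027327.1), the activin-binding antagonist follistatin. They were measured by RNA sequencing of ovaries of Jinding ducks, a laying breed of Anas platyrhynchos, all 340 days old, from a half-sib family and fed alike. The high group held ducks that laid at a rate above 99%, the low group ducks below 85%, and each group had 3 libraries, named high 1 to 3 and low 1 to 3. Whether each library stands for its own duck is not stated in the labels, and the p-values below therefore speak only of library-to-library spread, which may be technical. Abundance is read in FPKM (fragments per kilobase of transcript, relative to all fragments of the library), and the read depth behind it is unknown.

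The libraries held ovarian RNA by the markers that could be named. The granulosa cell gene FSHR stood at 12.8 to 18.6 FPKM, and the aromatase gene CYP19A1 at 12.8 to 40.8 FPKM. The egg-coat gene ZP2 stood at 179 to 517 FPKM. Summed FPKM over all transcripts ran from 622708 to 639135 in the high group and from 569606 to 605510 in the low group, so the totals did not overlap. Low 1 and low 3 were the least alike of the 15 pairs of libraries (Pearson r = 0.899 across 19790 transcripts, which are not independent replicates). All 5 transcripts reached 1 FPKM in at least 3 libraries and entered the comparison, which covered 19790 transcripts.

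Follistatin RNA was the most abundant of the 5 in every library and BMPR1B RNA the least. ACVR2A, BMP7 and BMPR2 lay between them at much the same level per transcript length, with means over the 6 libraries of 16.8, 16.5 and 15.8 FPKM against 35.2 for FST and 1.29 for BMPR1B. The order of the middle 3 changed from library to library. ACVR2A exceeded BMP7 in 4 of 6 libraries. BMPR2 exceeded ACVR2A in 3 of 6, all of them low libraries. Over all 6 libraries these neighbours thus held no single order. By mean level FST stood at the 82.9th percentile of the tested transcripts, the middle 3 between the 66.4th and the 67.8th, and BMPR1B at percentile 6.82. BMPR2 varied most across the 6 libraries, with a coefficient of variation of 32.9%, and ACVR2A least, with 12.0%.

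**Figure D1:**
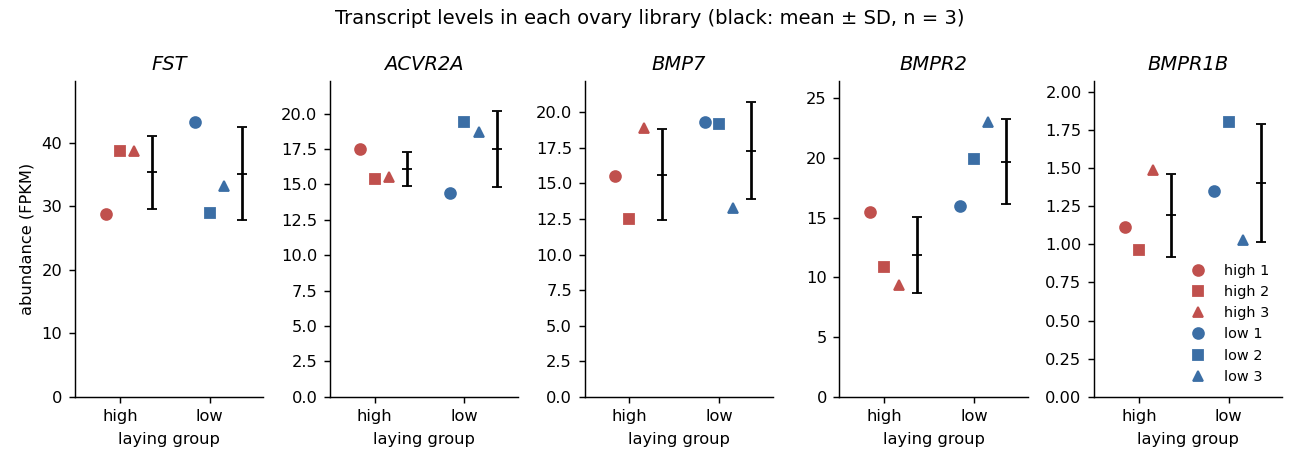
FPKM of FST, ACVR2A, BMP7, BMPR2 and BMPR1B in each ovary library, 1 panel per transcript with its own axis from 0, with coloured symbols for the 3 high and 3 low libraries and black bars for mean ± SD (n = 3). The groups are apart only for BMPR2, where the highest high library (15.5 FPKM) lies just under the lowest low library (16.0 FPKM).

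BMPR2, the type II receptor that BMP ligands and the oocyte factors BMP15 and GDF9 use in mammals, was the member on which the groups differed most, with all 3 high libraries below all 3 low libraries, but it did not pass the test over all transcripts. It stood at 15.5, 10.9 and 9.35 FPKM in high 1, 2 and 3 and at 16.0, 19.9 and 23.0 FPKM in low 1, 2 and 3. The gap between the groups was narrow, since high 1 and low 1 were nearly level, and the spread inside each group was wider than that gap. Group means were 11.9 ± 3.19 and 19.7 ± 3.53 FPKM (SD, n = 3). The log2(FPKM + 1) difference, high minus low, was -0.69 (SE 0.233, 95% interval -1.23 to -0.15), with an unadjusted limma p of 0.0193 and a limma adjusted p of 0.9998. Among the 5 transcripts BMPR2 was the only one whose groups did not overlap, 1 of 5, where 8.54% of all tested transcripts had groups that did not overlap and 4.83% were lower in every high library. An unadjusted limma p under 0.05 was reached by 3.51% of all tested transcripts, 1.82% on the lower side, and the adjusted threshold by 0.00505%, which is 1 transcript, lower in high and not one of the 5. Of the 5 members 4 had a log2 difference below 0, as had 50.5% of all tested transcripts. The totals of the libraries also differed between the groups, and with every library rescaled to the same total the BMPR2 difference was -0.81. That rescaling moved the median difference of all tested transcripts from -0.003 to -0.095. With library medians aligned instead, the BMPR2 difference was -0.65. It passed only where libraries were weighted by estimated reliability (-0.73, limma adjusted p = 0.0305), a fit in which low 2 outweighed the other low libraries many times over, the estimate of the weights stopped short of its convergence tolerance and 11.6% of all tested transcripts were called. In bulk tissue, fewer cells that express a gene and less RNA per cell cannot be told apart.

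ACVR2A, a type II receptor that binds activins and several BMPs, had overlapping groups. It stood at 17.5, 15.4 and 15.5 FPKM in high 1, 2 and 3 and 14.4, 19.4 and 18.7 FPKM across the low libraries. Low 1 was the lowest library of all and low 2 the highest, so the low group spanned the high one. Means were 16.1 ± 1.21 and 17.5 ± 2.69 FPKM (SD, n = 3), a log2 difference of -0.10 (95% interval -0.52 to 0.31, limma adjusted p = 0.9998). Within groups ACVR2A was one of the steadier transcripts, with a residual SD of 0.171 on the log2 scale, at the 16.9th percentile of the tested transcripts.

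BMPR1B, the type I receptor for BMPs and related growth factors, was close to the detection filter. It stood at 1.11, 0.962 and 1.49 FPKM across the high libraries and 1.35, 1.80 and 1.03 FPKM across the low libraries, at or above 1 FPKM in 5 of 6. The libraries of both groups were interleaved. The log2 difference was -0.13 (95% interval -0.69 to 0.44, limma adjusted p = 0.9998), on a scale where the added 1 understates the change of so low a transcript; with 0.1 in its place it was -0.21. BMPR1A, the other classical BMP type I receptor, was lower still, at 0.497 to 0.922 FPKM over the 6 libraries, and was not tested. The reference lists 8 transcripts for BMPR1B, 2 each for ACVR2A and FST and 1 each for BMPR2 and BMP7. For each of the 5 genes 1 was matched, but only 4636 of the 41952 accessions had a match, so further transcripts may have gone unnamed. The levels of all 5, and the ratios and orders built on them, are those of a single transcript and may not be those of the gene.

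BMP7, the only BMP ligand of the fixed pathway list that was tested, is made by theca cells in the rat ovary. It stood at 15.5, 12.5 and 18.9 FPKM across the high libraries and 19.3, 19.2 and 13.3 FPKM across the low libraries. High 2 and low 3 were its lowest libraries, 1 in each group, and the groups overlapped. Means were 15.6 ± 3.19 and 17.3 ± 3.42 FPKM (SD, n = 3), a log2 difference of -0.14 (95% interval -0.66 to 0.38, limma adjusted p = 0.9998). Without high 2 the sign turned, at 0.0040.

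FST encodes follistatin, which binds activin tightly and keeps it from its receptors, and which also binds some BMPs. It stood at 28.7, 38.7 and 38.6 FPKM across the high libraries and 43.2, 28.9 and 33.2 FPKM across the low libraries. Low 1 was the highest library and high 1 the lowest, with the rest mixed between them. Means were 35.3 ± 5.75 and 35.1 ± 7.31 FPKM (SD, n = 3), a log2 difference of 0.015 (95% interval -0.46 to 0.49, limma adjusted p = 0.9998). The sign turned to -0.087 with every library rescaled to the same total, where the median over all tested transcripts was -0.095. With library medians aligned the FST difference was 0.056. INHBA, which encodes the activin A subunit that follistatin binds, was at 0.451 to 0.912 FPKM in its more abundant transcript and was not tested. On the log2(FPKM + 1) scale the intervals of ACVR2A, BMP7, BMPR1B and FST each lie inside 1 log2 unit in either direction. That of BMPR2 reaches past it. For BMPR1B this bound rests on the added 1, since with 0.1 in its place the SE was 0.428 against 0.242. A larger change of BMPR1B is therefore not bounded.

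The balance of the 2 type II receptors did not overlap between the groups, in a design too small for its test to pass. ACVR2A itself differed little (log2 difference -0.10). The ratio thus largely restates the BMPR2 difference of -0.69 and is no separate result. BMPR2 over ACVR2A was 0.884, 0.711 and 0.604 in high 1, 2 and 3 and 1.11, 1.03 and 1.23 in low 1, 2 and 3, so BMPR2 RNA was the scarcer of the pair in all 3 high libraries and the more abundant in all 3 low libraries. The mean log2 ratio was -0.47 ± 0.275 in high and 0.16 ± 0.130 in low (SD, n = 3), a difference of -0.63. The two-sided exact permutation test over 20 labelings gave p = 0.1, the smallest it can give with 3 libraries against 3, and 1.0 after Benjamini-Hochberg adjustment over the 10 pairs of members. A ratio to ACVR2A that kept the high group wholly below the low group was also found for 2.95% of the other 19788 tested transcripts. In their own levels 4.83% of all tested transcripts were lower in every high library. Taking a library out left the difference between -0.77 and -0.50. BMPR2 made up 42.0 ± 4.64% of the summed BMPR2 and ACVR2A level in the high and 52.8 ± 2.24% in the low libraries (SD, n = 3).

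The named transcripts of the type I receptors BMPR1B and BMPR1A were far scarcer than those of the type II receptors BMPR2 and ACVR2A. BMPR1B over BMPR2 was 0.0716, 0.0880 and 0.159 across the high libraries and 0.0847, 0.0902 and 0.0448 across the low libraries, with the highest ratio in high 3 and the lowest in low 3. The groups overlapped, and the log2 difference of 0.52 gave p = 0.5 by the exact permutation test. BMPR1B over ACVR2A ran from 0.0551 to 0.0962, again with overlap (log2 difference -0.11, exact permutation p = 1.0). Summed BMPR2 and ACVR2A exceeded summed BMPR1A and BMPR1B by a factor of 16.4, 14.0 and 12.5 across the high libraries and 14.7, 15.9 and 24.2 across the low libraries, with low 3 apart from the other 5. These sums hold only the transcripts that could be named, of 4 of the 12 receptors on the fixed list, so other type I receptors are not in them.

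**Figure D2:**
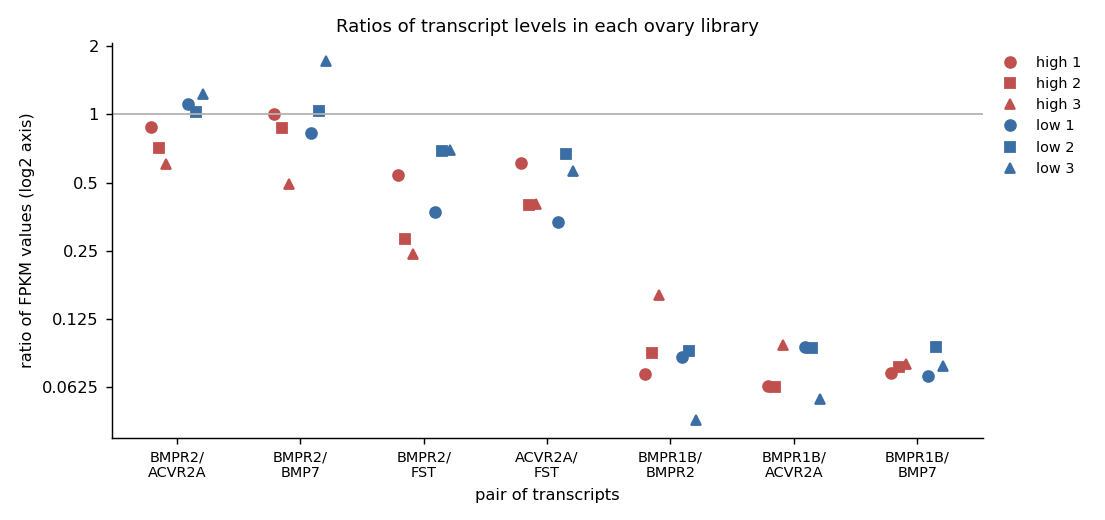
Ratios of FPKM values for 7 of the 10 pairs of transcripts in each ovary library, on a log2 axis, with red symbols for the high and blue for the low libraries and a grey line at equal levels. BMPR2/ACVR2A lies under 1 in the 3 high libraries and over 1 in the 3 low libraries, while BMPR1B/BMP7 stays between 0.0702 and 0.0935.

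Of the other ratios, those with BMPR2 on top were also lower on average in high, though their groups overlapped. Those without BMPR2 differed little between groups. BMPR2 over FST was 0.540, 0.283 and 0.243 across the high libraries and 0.371, 0.690 and 0.694 across the low libraries, with a log2 difference of -0.75 (exact permutation p = 0.2) and high 1 above low 1. BMPR2 over BMP7 was 1.0, 0.872 and 0.495 across the high libraries and 0.829, 1.04 and 1.73 across the low libraries. High 1 and high 2 were thus above low 1. The log2 difference of BMPR2 over BMP7 was -0.59 (exact permutation p = 0.4). BMP7 over FST was below 1 in all 6 libraries, from 0.324 to 0.665, and ACVR2A over FST likewise, from 0.334 to 0.670. The adjusted exact permutation p was 1.0 for each of the 10 pairs.

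BMPR1B and BMP7, a receptor and a ligand of the same pathway, ordered the libraries in much the same way, whatever the laying group, though their correlation did not pass after adjustment. Both were lowest in high 2 and low 3, next in high 1, and highest in high 3, low 1 and low 2. The ratio of BMPR1B to BMP7 was 0.0717, 0.0767 and 0.0787 across the high libraries and 0.0702, 0.0935 and 0.0773 across the low libraries. Its SD over the 6 libraries was 0.146 on the log2 scale, against 0.348 to 0.655 for the other 9 pairs. Over 6 libraries Pearson's r was 0.90 (exact permutation p = 0.0306, adjusted 0.215 over 10 pairs) and Spearman's rho 0.83 (exact permutation p = 0.0583, adjusted 0.291). Without the libraries farthest from the BMPR1B median, high 2 and low 2, r was 0.94, and for deviations from the group means it was 0.89. An r with BMP7 at least as high was found for 1.29% of the other tested transcripts, and a log2 ratio to BMP7 at least as steady for 0.872%. Summed erythrocyte and thrombocyte markers (2 of 7 named) had an r of -0.92 with BMP7 and -0.78 with BMPR1B. That sum was mostly MMRN1, highest in low 3 and high 2, while the other member, TUBB1, was lowest in these libraries. The part of these cells in the pairing was not tested.

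ACVR2A and FST, a receptor and the antagonist of its activin ligand, ordered the libraries in nearly opposite ways, again without passing after adjustment. The libraries with the least FST (high 1, low 2 and low 3) had the most ACVR2A, and low 1, with the most FST, had the least. Pearson's r was -0.90 (exact permutation p = 0.0431, adjusted 0.215 over 10 pairs) and Spearman's rho -0.83 (exact permutation p = 0.0583, adjusted 0.291). Without low 1 and low 2, the libraries farthest from the ACVR2A median, r was -0.76, and for deviations from the group means -0.94. An r with ACVR2A at least as negative was found for 1.91% of the other tested transcripts. ACVR2A was lowest and FST highest in low 1 (14.4 and 43.2 FPKM), ACVR2A was highest in low 2 (19.4 FPKM) and FST lowest in high 1 (28.7 FPKM). Markers of other cells followed a like order: ACTA2, of smooth muscle, was lowest in low 1 and highest in low 2 and low 3. ESRP1, the only named member of 6 surface epithelium markers, stood at 5.38, 8.28 and 10.7 FPKM in high 1, 2 and 3 and 11.0, 7.13 and 4.94 FPKM in low 1, 2 and 3, highest in low 1 as FST was; the part of these cells in the pairing was not tested.

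**Figure D3:**
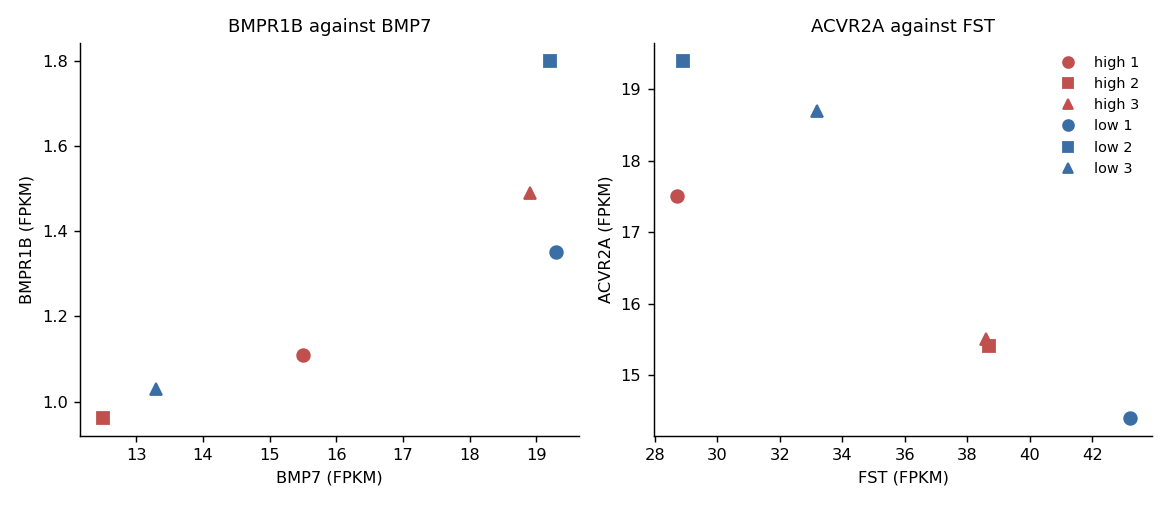
BMPR1B against BMP7 (left) and ACVR2A against FST (right) in FPKM, 1 symbol per ovary library, red for high and blue for low, with axes that do not start at 0. BMPR1B is mostly higher where BMP7 is higher (r = 0.90 on the log2 scale). Low 1, with the most BMP7, has less BMPR1B than high 3 and low 2. ACVR2A is mostly lower where FST is higher (r = -0.90), though high 1, with the least FST, has less ACVR2A than low 2 and low 3.

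The other 8 pairs had unadjusted exact permutation p of 0.136 or more for Pearson's r. BMPR2 and ACVR2A had an r of 0.71 (exact permutation p = 0.136), with a rho of 0.54 (exact permutation p = 0.297) and an r of 0.62 without high 3 and low 3. BMPR2 and FST had an r of -0.51 (exact permutation p = 0.318), a rho of -0.26 (exact permutation p = 0.658) and an r of -0.50 without high 3 and low 3. For deviations from the group means, given without a test, r was 0.78 for BMPR2 and ACVR2A and -0.83 for BMPR2 and FST. For none of the 10 pairs did a correlation pass after adjustment, and with 6 points r is loosely fixed: that of BMPR1B and BMPR2 ran from -0.39 to 0.43 with a library left out. Without high 2 and low 2 their r moved from 0.06 to -0.86. With the same libraries out it moved from 0.18 to -0.88 for BMPR1B and ACVR2A, and from -0.15 to 0.75 for BMPR1B and FST. Without high 3 and low 3 it moved from -0.05 to 0.90 for BMPR2 and BMP7. The moves were smaller for ACVR2A and BMP7 (-0.13 to -0.28) and for BMP7 and FST (0.079 to 0.565).

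Levels of other cell types' markers moved between libraries as well. The smooth muscle actin gene ACTA2, the only named member of a list of 5, stood at 1794, 1794 and 1427 FPKM across the high libraries and 1154, 2147 and 2510 FPKM across the low libraries, lowest in low 1 and highest in low 2 and low 3, as BMPR2 and ACVR2A were within the low group. Summed oocyte markers (5 of 13 named) ran from 703 to 976 FPKM in high and from 415 to 1138 in low. The sum of the list fixed as granulosa (3 of 10: FSHR, CYP19A1 and GJA1) ran from 126 to 162 and from 98.7 to 182. It was mostly GJA1, at 69.7 to 126 FPKM over the 6 libraries. GJA1 and CYP19A1 fell from low 1 to low 3 as the sum did. FSHR did not, at 15.5, 18.6 and 16.2 FPKM in low 1, 2 and 3. Which cells of the duck ovary express CYP19A1 was not tested, so this sum may mix cell types. Summed stromal fibroblast markers (5 of 9) ran from 781 to 1069 FPKM in high and from 520 to 850 in low, and summed leukocyte markers (4 of 8) from 352 to 1451 and from 143 to 377. None of the 7 markers of the theca and steroidogenic list, which did not hold CYP19A1, was named in the tables. Of the named markers none was at 0 in any library. The leukocyte sum was mostly JCHAIN, at 1348 FPKM in high 1. For each of the 9 lists with named members the summed levels of the groups overlapped, but some lists were one-sided. All 5 stromal and all 4 leukocyte markers had a log2 difference above 0, as had 9802 of all 19790 tested transcripts. Their medians were 0.33 and 0.56, and 0 of them passed by limma or had an unadjusted p under 0.05. The stromal ASPN was above 0 by 0.007 only, and its mean FPKM was lower in high (41.0) than in low (44.0). The endothelial markers (5 of 7 named) were mixed, 2 above 0 and 3 below, with a median log2 difference of -0.053. Only 1 of them, PECAM1 in the most abundant of its 4 named transcripts, had groups without overlap, as had 8.54% of all tested transcripts. No marker of the other lists had. PECAM1 was higher in high, the side opposite to BMPR2. It was at 66.8, 45.5 and 49.4 FPKM in high 1, 2 and 3 and at 32.8, 42.5 and 41.6 FPKM in low 1, 2 and 3. The part of cell makeup in the BMPR2 difference and in the paired movements was not tested.

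Of the 102 genes fixed for the pathway, 26 could be named in the tables and 19 were tested, the 5 transcripts above among them. Of the other 14, 8 had a log2 difference above 0 and 6 below, with a median of 0.010 against -0.003 over all tested transcripts. By limma 0 of the 14 passed the threshold, 0 had an unadjusted p under 0.05 and 0 had groups that did not overlap. Over all tested transcripts the last 2 shares were 3.51% and 8.54%, so few were to be looked for among 14. In the array-weighted fit that called BMPR2, 2 of the 14 were also called, where 11.6% of all tested transcripts were. They were GDF9 (-0.49, limma adjusted p = 0.0402) and XIAP, in the most abundant of its 3 named transcripts (-0.99, limma adjusted p = 0.0457). The split depended on the scale, at 5 above and 9 below with every library rescaled to the same total and 10 above and 4 below with library medians aligned.

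Among ligands, GDF9, the oocyte growth factor that acts on granulosa cells, stood at 62.4, 58.7 and 55.2 FPKM in high and 74.3, 83.8 and 49.4 FPKM in low libraries, a log2 difference of -0.20 (95% interval -0.69 to 0.29). GDF2 and the myostatin gene MSTN were below the filter, at means of 0.342 and 0.877 FPKM. The decoy receptor BAMBI, which lacks a kinase domain and blocks signalling, was the most abundant gene of the tested list by mean level. It stood at 171, 171 and 157 FPKM across the high libraries and 244, 125 and 84.4 FPKM across the low libraries, so the low group spanned the high one by far (log2 difference 0.27, 95% interval -0.54 to 1.09).

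Like follistatin, the other tested antagonists, NOG and CRIM1, did not separate the groups. NOG, the BMP antagonist noggin, stood at 14.0, 15.5 and 21.9 FPKM in high and 21.8, 13.4 and 10.5 FPKM in low libraries (log2 difference 0.20, 95% interval -0.48 to 0.88). CRIM1, a membrane protein that binds BMPs, stood at 19.1, 11.4 and 11.5 FPKM and 9.88, 17.2 and 17.5 FPKM (log2 difference -0.081, 95% interval -0.76 to 0.60). Low 1 was high for FST, NOG and BAMBI and low for CRIM1. CER1, SOST and CHRDL2 were below the filter, at means of 0.368 to 0.462 FPKM. TLL1, a protease of the tolloid family that cleaves the BMP antagonist chordin, was at 2.14 to 3.06 FPKM, with a log2 difference of 0.016.

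SMAD5, ZFYVE9 and SMAD3 varied least of the tested pathway genes. SMAD5, a mediator of BMP receptors, stood at 39.6, 40.0 and 38.4 FPKM across the high libraries and 40.1, 39.1 and 38.4 FPKM across the low libraries. Its highest library exceeded its lowest by a factor of 1.05, against 2.46 for BMPR2. SMAD3, a mediator of activin receptors, ran from 18.3 to 22.4 FPKM, and ZFYVE9, which presents SMADs to the receptors, from 16.7 to 20.6 FPKM. The co-repressor gene SKI stood at 15.9, 12.1 and 10.4 FPKM in high and 10.2, 17.7 and 20.6 FPKM in low libraries (log2 difference -0.28, 95% interval -0.95 to 0.39), and the co-repressor gene TGIF1 at 22.7, 26.6 and 27.4 against 16.5, 20.7 and 26.7 FPKM (log2 difference 0.28, 95% interval -0.20 to 0.75). TAB1, a partner of the kinase TAK1, and XIAP, an inhibitor of apoptosis that binds TAB1, differed by 0.084 and -0.27.

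Of the BMP target genes, MSX2 varied most of all tested pathway genes. MSX2, a homeobox gene induced by BMPs, stood at 9.46, 19.4 and 16.1 FPKM across the high libraries and 32.7, 6.01 and 6.26 FPKM across the low libraries, with low 1 above and low 2 and low 3 below all others. Its log2 difference was 0.36 (95% interval -1.04 to 1.77). ID2, an inhibitor of basic helix-loop-helix factors, stood at 105, 66.4 and 96.6 FPKM in high and 45.7, 80.9 and 77.9 FPKM in low libraries, a log2 difference of 0.40 (95% interval -0.23 to 1.03). The library with the most MSX2, low 1, had the least ID2.

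**Figure D4:**
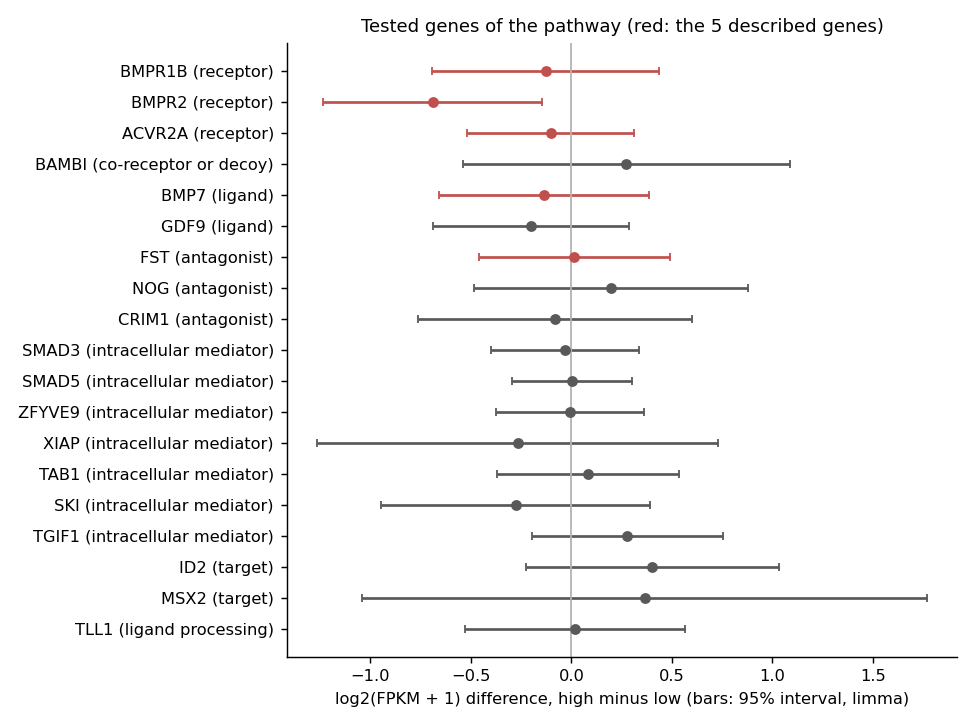
log2(FPKM + 1) difference, high minus low, for the 19 tested pathway genes with limma 95% intervals, ordered by role, the 5 described genes in red. Only the interval of BMPR2 (-1.23 to -0.15) leaves out 0, and no gene passed after adjustment over 19790 transcripts.

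**Figure D5:**
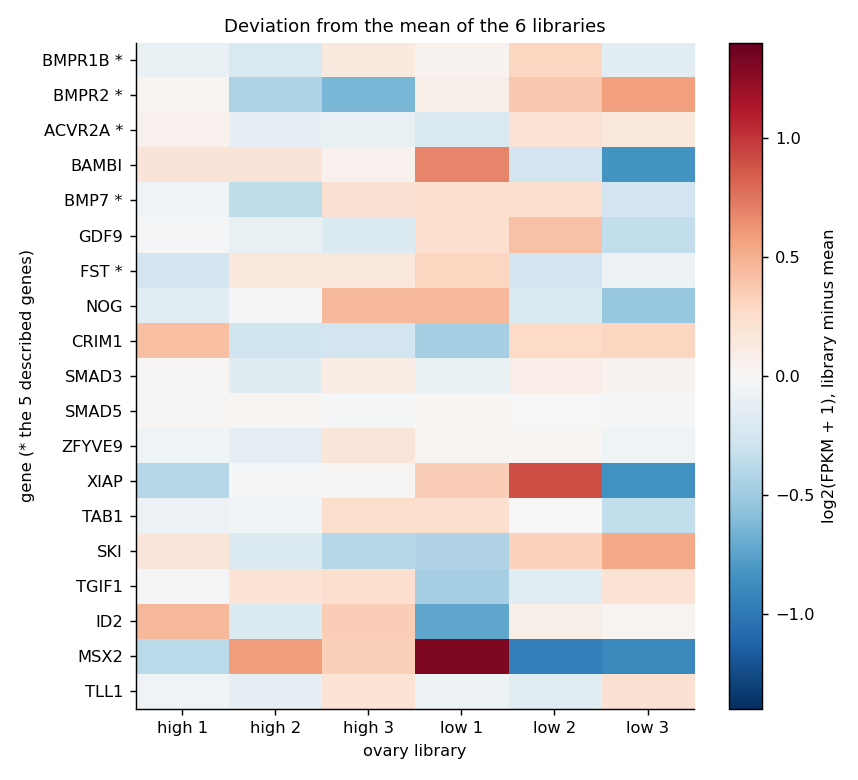
Deviation of log2(FPKM + 1) from each gene's mean over the 6 ovary libraries for the 19 tested pathway genes, red above and blue below the mean, with * at the 5 described genes. BMPR2 is below its mean in high 2 and high 3 and above it in low 2 and low 3. It is near its mean in high 1 and low 1. SMAD5 is even across all 6. Low 1 is the highest library for MSX2 and BAMBI, and low 3 is the lowest for BAMBI.

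Named transcripts with the most similar profiles were taken for each of the 5, by Pearson's r over the 6 libraries among 1335 named transcripts of at least 5 FPKM on average (1336 for BMPR1B). The r of the 15 chosen ran from 0.92 to 0.99, values that choosing the top of so many makes high, so they describe these libraries only. For BMPR2 they were XM_005017091.2, a minor CALD1 transcript (caldesmon, which binds actin, r = 0.98), TMEM255A (r = 0.97) and a non-coding transcript of MLXIP, which encodes a glucose-responsive transcription factor (r = 0.96). The CALD1 transcript stood at 4.64, 2.33 and 1.06 FPKM in high and 5.54, 11.9 and 23.6 FPKM in low libraries, with the same order of libraries as BMPR2 throughout. Groups that do not overlap follow for these 3 from their likeness to BMPR2 and are no further result.

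For BMP7 the nearest were the ganglioside synthase gene ST8SIA1 (r = 0.99), the histone acetyltransferase gene KAT14 (r = 0.97) and the palmitoyltransferase gene ZDHHC22 (r = 0.97). ST8SIA1 stood at 4.95, 3.61 and 7.53 FPKM in high and 7.72, 8.13 and 3.49 FPKM in low libraries. BMPR1B shared KAT14 (r = 0.95) and had SOAT1, which esterifies cholesterol (r = 0.96), and DIXDC1, of the Wnt pathway (r = 0.93). For ACVR2A they were the zinc finger gene BNC1 (r = 0.97), the ribosomal S6 kinase gene RPS6KA3 (r = 0.95) and SKI of the pathway list (r = 0.95). For FST they included TMEM117 (r = 0.95) and LZTFL1, which acts in ciliary trafficking (r = 0.92). TMEM117 stood at 2.98, 5.57 and 7.86 FPKM in high and 11.4, 3.43 and 4.23 FPKM in low libraries, with low 1 highest as for FST.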

How the data were processed

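Ovary RNA of 3 high-laying and 3 low-laying libraries was sequenced from stranded poly(A) libraries, per the labels' protocols. Bowtie2 2.0.6 and TopHat2 2.0.9 were used, per the submitters' processing notes, with abundance program, build and annotation not given in the sources used here. Per transcript and library the authors deposited 1 fractional value and named no unit, and since the sums differ between libraries these were read as FPKM, that is, normalized by the authors to transcript length and library size. Low values showed no steps of whole reads (the fullest 0.02-wide bin of log2 ratios held at most 1.25% of 5293 transcripts), so depth is unknown and no count test was run. Accessions were matched without version to RefSeq's IASCAAS Pekin duck gene table: 4636 of 41952 matched, 3452 with a symbol. Each of the 5 genes had 1 matched transcript in the tables.

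The 19790 transcripts that reached 1 FPKM in 3 or more libraries were fitted on log2(FPKM + 1) with limma-trend (limma 3.58.1, R 4.3.3), group as the only term, two-sided, Benjamini-Hochberg threshold 0.05; the procedure was tested on simulated data. Ratios had no pseudocount. Genes named were the 5, all tested pathway genes and 3 nearest profiles each, of which 1 is not reported here. Members and lists were chosen with earlier results of these data known. Alternatives were other pseudocounts, filters, scalings, array weights and leaving out each library.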

Additional observations from a re-analysis of the deposited data

How the results depend on the processing

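No paired analysis was possible because the sample titles give no number to libraries of both groups. The BMPR2 difference kept its sign in its 12 alternatives and passed the threshold only with array weights, at -0.73 (limma adjusted p = 0.0305). Those weights, whose estimation stopped short of convergence, gave low 2 17.28 against 0.2509 and 0.2689 for low 1 and low 3, and 2292 transcripts were called where equal weights called 1. Without a filter 0 were called by limma, with 1771 at an unadjusted p under 0.05, and with a library left out the count ran from 1 to 3. The unadjusted limma p of BMPR2 ran from 0.00788 without high 1 to 0.0704 without high 3. The FST difference turned to -0.087 in TPM, where the median over all tested transcripts was -0.095. The BMPR1B/BMP7 ratio difference turned to 0.0090 with a pseudocount of 1, and r of BMPR1B and BMPR2 to -0.042 with medians aligned. The sum over all transcripts of a gene was not run, since each of the 5 genes had 1 matched transcript in the tables.

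With each library left out in turn, log2 differences ran from -0.302 to 0.0040 for BMP7 and from -0.111 to 0.170 for FST. Log2 ratio differences ran from -0.366 to 0.018 for BMPR1B/ACVR2A, -0.188 to 0.266 for ACVR2A/BMP7, -0.417 to 0.085 for ACVR2A/FST, -0.169 to 0.037 for BMPR1B/BMP7, -0.406 to 0.095 for BMPR1B/FST and -0.306 to 0.063 for BMP7/FST. Pearson's r ran from -0.389 to 0.428 for BMPR1B and BMPR2, -0.507 to 0.360 for BMPR2 and BMP7, -0.520 to 0.454 for BMPR1B and ACVR2A, -0.545 to 0.189 for ACVR2A and BMP7, -0.381 to 0.449 for BMPR1B and FST and -0.280 to 0.408 for BMP7 and FST. The pathway genes below 0, 10 of 19 with all libraries, numbered 8 to 14. The cause of these turns was not tested.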
